A study of Mus musculus with 6 samples.

Results

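The 37 genes described here belong to the TGF-beta and BMP signalling pathway and were chosen by symbol, with each array probe assigned to its gene through the RefSeq accession printed for it. They comprise 5 ligands, 4 extracellular regulators, 10 receptors, 8 Smads, 5 nuclear repressors and ubiquitin ligases, and 5 target genes. All 37 had a probe among the 20284 genes the arrays named, and 36 were bright enough to be tested, out of 14867 tested genes. Ctgf is listed under its current symbol Ccn2 in the RefSeq gene table.

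The cells were spermatogonial stem cells, from which mouse sperm production starts, taken from dissociated testes, depleted of gelatin-adherent cells and then grown with mouse embryonic fibroblasts (MEFs) as feeders. The captopril group (3 arrays) received captopril, an inhibitor of angiotensin-converting enzyme, at 0.01 M for 24 h. The water group (3 arrays) received sterile water for 24 h, and the labels print 0.01 M for it too. Strain, genotype and age are not given in the sources used here. Each array measured the RNA of 1 of 3 independent experiments per group, numbered 2, 3 and 4 in both groups. Feeder cells and germ cells were not separated by the labels' protocols, so fewer cells of a type and less RNA per cell cannot be told apart in any value below.

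TGF-beta family ligands bind pairs of type II and type I receptor kinases at the cell surface. TGF-beta and activin receptors phosphorylate Smad2 and Smad3, BMP receptors phosphorylate Smad1, Smad5 and Smad9, and both sets enter the nucleus with Smad4. Smad6 and Smad7, which are themselves induced by the pathway, feed back to inhibit it. In the testis, BMP4 and activin have been linked to the differentiation of mouse spermatogonia, and TGF-beta is a classical inducer of matrix genes in fibroblasts.

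A level below is log2 of the background-subtracted signal relative to the 75th percentile of its own array, and a difference is captopril minus water on that scale. Levels of different genes come from different probes and are not set against each other. Water replicate 3 stood apart. Its correlation with the other arrays over 32387 probes was 0.878 to 0.893, whereas the other 5 arrays correlated with each other at 0.970 to 0.991. Between 52.2% and 60.5% of the spots of an array were well above background, the lowest share being that of water replicate 3. The comparisons were therefore made over 6 arrays and over the 5 arrays without water replicate 3. Of the marker genes, 15 of 15 for undifferentiated spermatogonia and 14 of 14 for feeder fibroblasts were measured, against 5 of 8 for Sertoli cells, 1 of 6 for Leydig cells and 5 of 7 for leukocytes. Among the Sertoli markers, Gata4, Cldn11 and Fshr were not well above background on enough arrays to be tested. The Leydig marker Insl3 and the leukocyte marker Cd68 had no probe assigned, so they could not be measured at any level.

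No member of the pathway passed the threshold, an adjusted p under 0.05 over all tested genes, in either comparison. Without water replicate 3, the smallest adjusted p were those of the matrix-associated target Ctgf and the ligand gene Tgfb3, at 1.69-fold and 1.57-fold of the water level (limma, adjusted p = 0.080 and 0.097). Over 6 arrays Tgfb3 was 1.64-fold of the water level and its groups did not overlap, whereas Ctgf was 1.29-fold and water replicate 3 lay above every captopril array (limma, adjusted p = 0.529 and 0.721). Among the members with lower mean levels in captopril, the inhibitory Smad gene Smad6 and the target Id2 had the largest differences, and in both the captopril arrays were far apart. Most receptors and the common Smad gene Smad4 differed by less than their standard error once water replicate 3 was left out.

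Over 6 arrays, 0 of 36 members and 0% of all tested genes passed the threshold. At an unadjusted p under 0.05 there were 2 members, Tgfb3 higher and Smad6 lower. That is 5.56% of the members, against 8.25% of all tested genes (3.32% higher and 4.94% lower). Over 5 arrays, 0 of 36 members passed, against 92 genes or 0.619% of all tested. At an unadjusted p under 0.05 there were 8 members or 22.2%, against 19.1% of all tested genes. Of these, 7 or 19.4% of the members were higher (Bmp2, Tgfb3, Ltbp1, Acvr1b, Smad3, Ski and Ctgf), against 12.1% of all tested genes. Smad1 was lower, which is 2.78% of the members, against 7.01% of all tested genes. No test of these shares was made.

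The median difference of the 36 members was −0.12 over 6 arrays, with 14 members above 0 and 22 below, beside −0.03 for all tested genes. Over 5 arrays it was 0.07, with 22 members above 0 and 14 below, beside 0.07 for all tested genes. By role, the medians over 5 arrays were 0.24 for ligands, 0.30 for extracellular regulators, 0.01 for receptors, −0.01 for Smads, 0.18 for repressors and ligases and 0.10 for targets. These medians describe 3 to 10 genes each and carry no test. Scaling by each array's median in place of the 75th percentile put the median of all genes at −0.33 over 6 arrays and at −0.06 over 5, and it moved every member by the same amount as all genes.

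**Figure D1:**
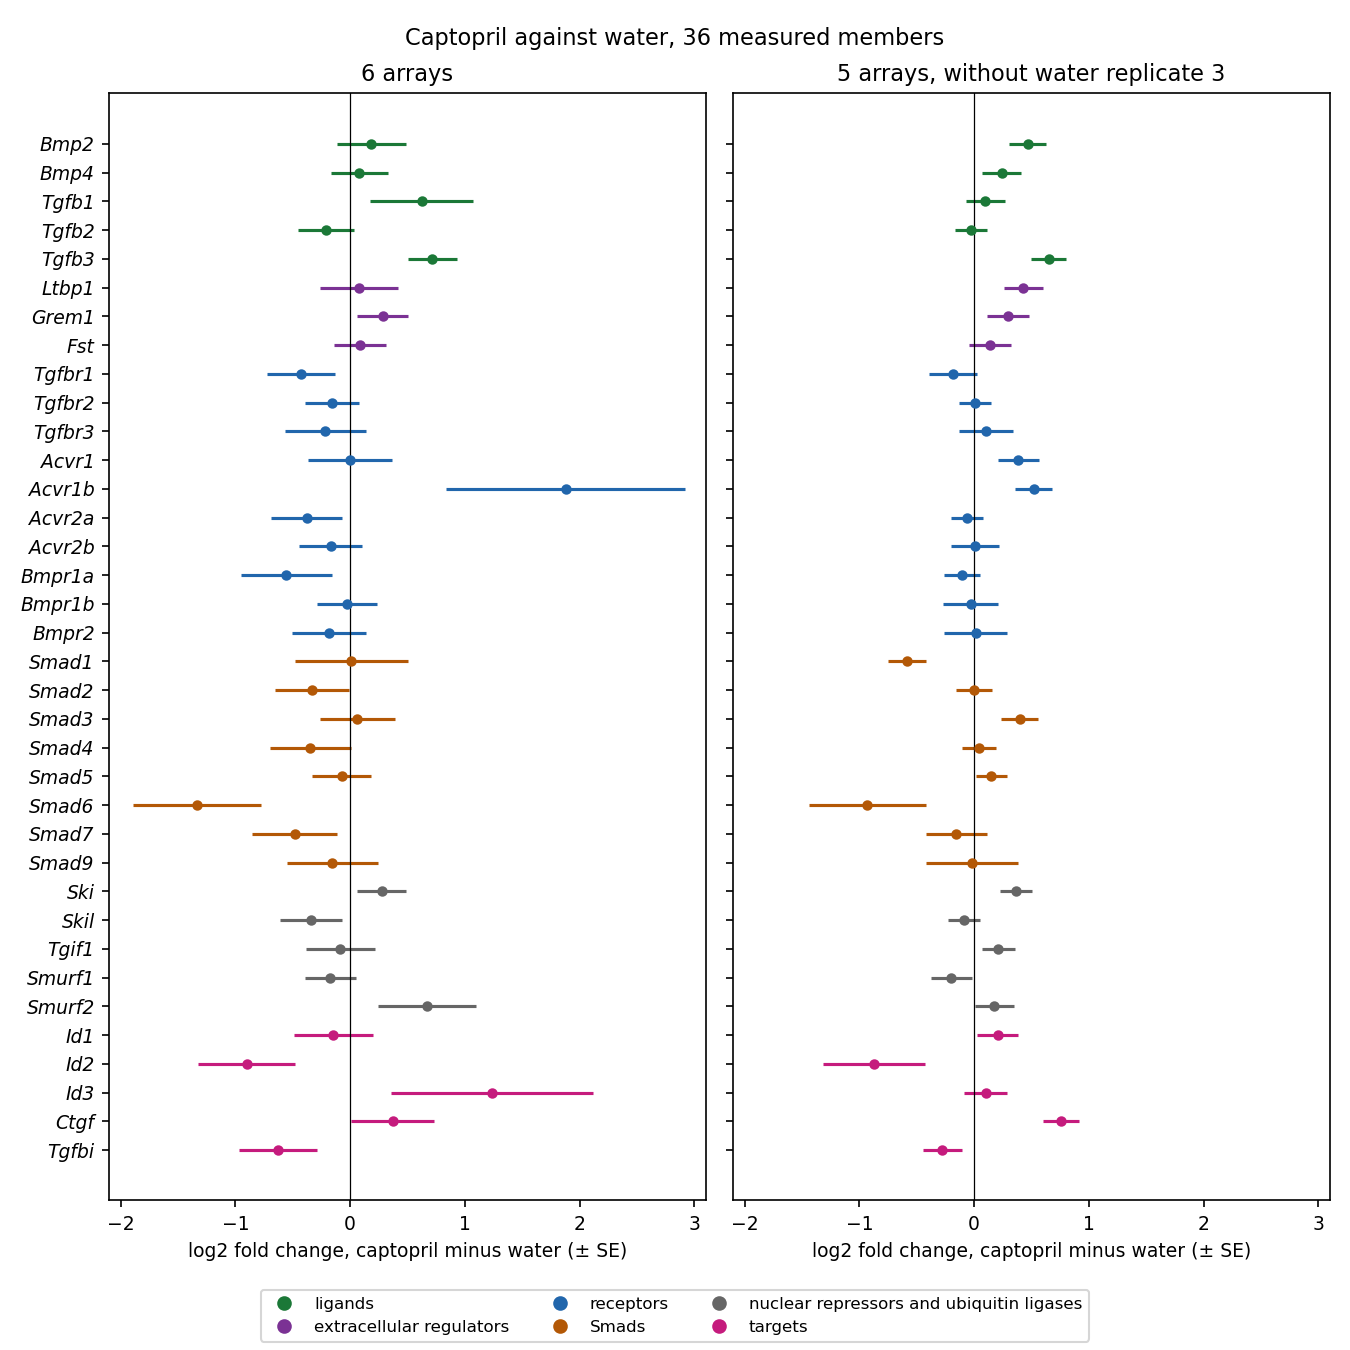
Log2 fold change (captopril minus water) with its standard error for the 36 measured members, coloured by role. The left panel uses 6 arrays and the right panel 5 arrays without water replicate 3, where most bars are shorter and where Ctgf (0.76), Tgfb3 (0.65), Id2 (−0.87) and Smad6 (−0.93) lie farthest from 0.

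Of the ligands, Tgfb3 encodes TGF-beta 3, a secreted ligand of the TGF-beta receptors. Its level was 0.18, 0.12 and 0.37 on captopril replicates 2, 3 and 4, against −0.37, −0.62 and −0.48 on water replicates 2, 3 and 4. All 3 captopril arrays lay above all 3 water arrays, and water replicate 3 lay close to the other water arrays for this gene. The difference was 0.72 ± 0.21 over 6 arrays (SE; limma, adjusted p = 0.529) and 0.65 ± 0.15 over 5 arrays (adjusted p = 0.097, 95% confidence interval 0.29 to 1.01). It stayed above 0 under every alternative, at 0.42 to 0.78 over 6 arrays and at 0.52 to 0.71 over 5.

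Bmp2, a BMP ligand, had levels of −2.59, −2.57 and −2.34 on the captopril arrays, against −2.85, −2.11 and −3.08 on the water arrays. Water replicate 3 was the highest of the 6 arrays, and the other water arrays lay below all captopril arrays. The difference was 0.18 ± 0.30 over 6 arrays and 0.47 ± 0.16 over 5 arrays (SE; limma, adjusted p = 0.844 and 0.196). Bmp4, whose product acts on differentiating spermatogonia in the mouse, had 0.98, 1.23 and 1.35 on the captopril arrays, against 1.06, 1.42 and 0.83 on the water arrays. The groups overlapped with and without water replicate 3. Tgfb1 overlapped too, with −0.07, −0.13 and 0.27 on the captopril arrays, against −0.05, −1.65 and −0.11 on the water arrays, so its 6-array difference of 0.62 was 0.10 without water replicate 3. The difference of Tgfb2 was −0.21 over 6 arrays and −0.03 over 5.

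The extracellular regulators bind or store the ligands. Ltbp1 encodes a latent TGF-beta binding protein that anchors inactive ligand in the matrix. It had levels of 2.04, 1.89 and 1.66 on the captopril arrays, against 1.34, 2.48 and 1.53 on the water arrays. Both water replicates 2 and 4 were below every captopril array and water replicate 3 was above them all. The difference was 0.08 over 6 arrays and 0.43 ± 0.17 over 5 arrays (SE; limma, adjusted p = 0.244). Grem1, a secreted BMP antagonist, had 0.42, −0.06 and 0.09 on the captopril arrays, against −0.10, −0.11 and −0.18 on the water arrays. The groups did not overlap, but captopril replicate 3 was within 0.05 of the highest water array, and the difference was 0.28 over 6 arrays and 0.30 over 5. Fst encodes follistatin, which binds activin, and its groups overlapped, with 2.16, 2.02 and 2.50 on the captopril arrays, against 2.11, 2.24 and 2.06 on the water arrays. The probe of Nog, the gene of the BMP antagonist noggin, was not well above background on any array.

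Acvr1b encodes a type I receptor for activin. Its levels were −2.67, −2.55 and −2.37 on the captopril arrays, against −2.98, −7.13 and −3.11 on the water arrays, and on water replicate 3 its probe was not well above background. All captopril arrays were above all water arrays. The difference was 1.88 ± 1.04 over 6 arrays and 0.52 ± 0.16 over 5 arrays (SE; limma, adjusted p = 0.630 and 0.163). Acvr1, a type I receptor used by BMPs, differed by −0.00 over 6 arrays and by 0.39 over 5, where its groups did not overlap. The second Acvr1 probe differed by 0.69 over 6 arrays and by 0.04 over 5, and its groups overlapped over 5. Bmpr1a, another BMP type I receptor, had 0.51, 0.47 and 0.77 on the captopril arrays, against 0.65, 2.04 and 0.73 on the water arrays. Its groups overlapped in both comparisons, and water replicate 3 was the highest of the 6 arrays. The difference was −0.56 over 6 arrays and −0.11 over 5.

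For the other receptors the 5-array differences were small. Tgfbr2, the type II receptor of TGF-beta, differed by 0.01 (95% confidence interval −0.32 to 0.34), Bmpr2, the type II receptor of BMPs, by 0.01 (−0.63 to 0.66), and the activin type II receptor genes Acvr2a and Acvr2b by −0.06 (−0.40 to 0.28) and 0.01 (−0.49 to 0.51). These data do not exclude changes up to those bounds. Tgfbr1, the type I receptor of TGF-beta, differed by −0.19, the co-receptor gene Tgfbr3 by 0.10 and the BMP type I receptor gene Bmpr1b by −0.03. Over 6 arrays the differences were −0.16 for Tgfbr2, −0.19 for Bmpr2, −0.38 for Acvr2a, −0.17 for Acvr2b, −0.43 for Tgfbr1, −0.22 for Tgfbr3 and −0.03 for Bmpr1b. Thus by the brightest probe 9 of the 10 receptors were below 0 over 6 arrays, all except Acvr1b, beside 7918 of the 14867 tested genes. The second probes of Acvr1, Tgfbr2 and Bmpr1b were above 0 there, at 0.69, 0.15 and 0.08. In each of Tgfbr1, Tgfbr2, Tgfbr3, Acvr2a, Acvr2b and Bmpr2, water replicate 3 was above the mean of the other water arrays, by 0.51 to 0.96. These values are of the brightest probes, and the second probes of Tgfbr2 and Acvr2a were below that mean.

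**Figure D2:**
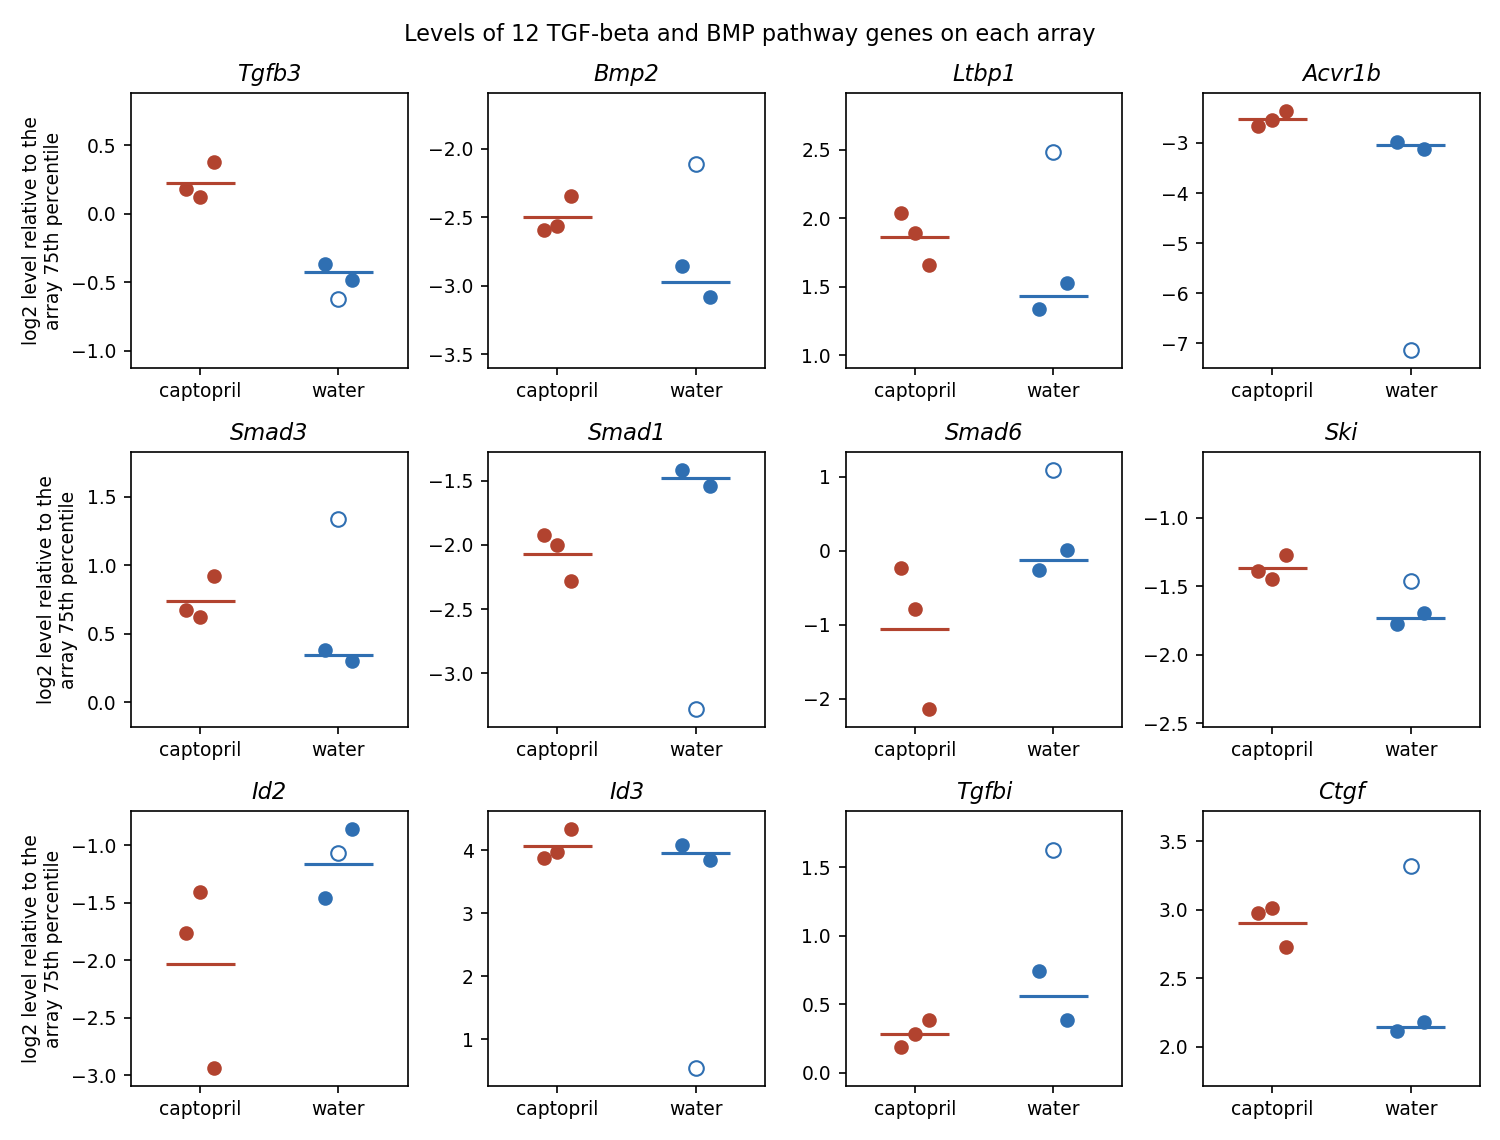
Log2 level relative to the array's 75th percentile (vertical axis) for 12 members, with captopril arrays in red and water arrays in blue; lines are the means of the captopril arrays and of water replicates 2 and 4, and the open circle is water replicate 3. The captopril arrays of Tgfb3 lie above all water arrays, whereas for Ctgf, Ltbp1, Bmp2 and Smad3 they lie above water replicates 2 and 4 but below water replicate 3.

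Among the receptor-activated Smads, the TGF-beta branch member Smad3 had levels of 0.68, 0.62 and 0.92 on the captopril arrays, against 0.38, 1.34 and 0.31 on the water arrays. The captopril arrays were above water replicates 2 and 4 and below water replicate 3. The difference was 0.06 over 6 arrays and 0.40 ± 0.16 over 5 arrays (SE; limma, adjusted p = 0.243). Smad2, of the same branch, differed by −0.33 over 6 arrays and by −0.00 over 5 (95% confidence interval −0.38 to 0.37). On the BMP branch, Smad1 had −1.93, −2.0 and −2.28 on the captopril arrays, against −1.42, −3.28 and −1.54 on the water arrays. Its captopril arrays lay between water replicate 3 and the other water arrays, and the difference was 0.01 over 6 arrays and −0.59 ± 0.17 over 5 arrays (limma, adjusted p = 0.143). A second Smad1 probe had a 5-array difference of 0.26, the opposite sign. Smad5, also of the BMP branch, differed by −0.07 over 6 arrays and by 0.15 over 5, and its second probe by −0.47 and −0.32. Smad9 was dim, and its difference was −0.16 over 6 arrays and −0.02 (−0.97 to 0.93) over 5. The shared partner Smad4 differed by −0.35 over 6 arrays and by 0.04 over 5.

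Of the inhibitory Smads, Smad6, which restrains mainly BMP signals, had levels of −0.23, −0.79 and −2.13 on the captopril arrays, against −0.25, 1.08 and 0.02 on the water arrays. The captopril arrays were far apart, with replicate 2 within the water range and replicate 4 far below it. The difference was −1.33 ± 0.56 over 6 arrays and −0.93 ± 0.51 over 5 arrays (SE; limma, adjusted p = 0.602 and 0.355). Without captopril replicate 4 the 5-array difference of Smad6 was −0.39. Smad7, which restrains TGF-beta receptors, had −0.45, −0.57 and −0.26 on the captopril arrays, against −0.70, 0.71 and 0.17 on the water arrays, and the groups overlapped in both comparisons.

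Ski and Skil encode nuclear repressors of Smad-driven transcription. Ski had −1.39, −1.44 and −1.27 on the captopril arrays, against −1.77, −1.46 and −1.69 on the water arrays. The groups did not overlap, by a margin of under 0.05 against water replicate 3, and the difference was 0.27 over 6 arrays and 0.36 ± 0.14 over 5 arrays (SE; limma, adjusted p = 0.237). Skil differed by −0.34 over 6 arrays and by −0.09 over 5. Tgif1, a homeodomain repressor of the same pathway, differed by −0.09 over 6 arrays and by 0.21 over 5, with the sign turned. Smurf1 and Smurf2 encode ubiquitin ligases that mark receptors and Smads for degradation. Smurf1 differed by −0.17 over 6 arrays and by −0.20 over 5, and Smurf2, which was low on water replicate 3, by 0.67 over 6 arrays and by 0.18 over 5.

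The targets comprise the Id genes, which encode inhibitors of helix-loop-helix factors and are the usual readout of BMP signals, and the matrix genes Ctgf and Tgfbi, the usual readout of TGF-beta in fibroblasts. Id1 and Ctgf had no window in the RefSeq promoter table used here. The 250 bases before the start of the other targets, Id2, Id3 and Tgfbi, are shown because Smad complexes are known to act at promoters of target genes. They come from RefSeq on build GRCm38.p6, and capitals mark CAGAC, a core Smad-binding word, or GGCGCC, a GC-rich word of BMP-responsive promoters, on either strand (GTCTG is CAGAC on the other strand). The Id2 window is chr12:25096093-25096342 on the minus strand, the Id3 window chr4:136143572-136143821 on the plus strand and the Tgfbi window chr13:56609336-56609585 on the plus strand.
Id2: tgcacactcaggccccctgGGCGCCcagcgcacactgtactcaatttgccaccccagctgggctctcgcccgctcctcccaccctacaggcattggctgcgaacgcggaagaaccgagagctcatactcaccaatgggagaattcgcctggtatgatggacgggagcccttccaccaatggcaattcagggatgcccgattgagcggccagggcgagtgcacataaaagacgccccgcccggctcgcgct
Id3: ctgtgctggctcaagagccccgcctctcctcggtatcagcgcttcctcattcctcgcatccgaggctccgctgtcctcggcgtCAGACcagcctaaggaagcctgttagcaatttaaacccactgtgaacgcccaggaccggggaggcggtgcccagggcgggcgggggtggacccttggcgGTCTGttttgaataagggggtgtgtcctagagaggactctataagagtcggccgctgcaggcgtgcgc
Tgfbi: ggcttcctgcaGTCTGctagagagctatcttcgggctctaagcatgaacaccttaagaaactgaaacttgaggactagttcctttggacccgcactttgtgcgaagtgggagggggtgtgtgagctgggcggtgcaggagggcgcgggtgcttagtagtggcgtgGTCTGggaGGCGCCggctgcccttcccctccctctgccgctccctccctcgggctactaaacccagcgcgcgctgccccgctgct
Id2 held GGCGCC at 231 bases before the start and no CAGAC, Id3 held CAGAC at 167 and 68 bases before the start, and Tgfbi held CAGAC at 239 and 85 bases and GGCGCC at 77 bases before it. Across the RefSeq promoter table, CAGAC was in 42.2% and GGCGCC in 9.59% of 32851 windows of this length. For the 26 members listed there, with 36 windows, the shares were 50% and 27.8%. The words do not overlap each other in these windows, and a match is a description of the letters, not of binding.

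Id2 had levels of −1.76, −1.41 and −2.94 on the captopril arrays, against −1.46, −1.07 and −0.86 on the water arrays. Captopril replicate 4 was well below every other array, and captopril replicate 3 was within the water range. The difference was −0.90 ± 0.42 over 6 arrays and −0.87 ± 0.44 over 5 arrays (SE; limma, adjusted p = 0.615 and 0.328), and without captopril replicate 4 the 5-array difference of Id2 was −0.42. Id1 had 0.64, 0.75 and 1.08 on the captopril arrays, against 0.56, 1.67 and 0.67 on the water arrays, so its groups overlapped in both comparisons. Id3 had 3.88, 3.97 and 4.33 on the captopril arrays, against 4.08, 0.55 and 3.84 on the water arrays. Its 6-array difference of 1.24 ± 0.88 came with a water replicate 3 that was 0.094 times the mean of the other water arrays, and the 5-array difference was 0.10 ± 0.19 (limma, adjusted p = 0.646 and 0.783).

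Ctgf encodes connective tissue growth factor, a matricellular protein. Its levels were 2.98, 3.02 and 2.73 on the captopril arrays, against 2.12, 3.32 and 2.18 on the water arrays. The captopril arrays lay together, above water replicates 2 and 4 and below water replicate 3. The difference was 0.37 ± 0.36 over 6 arrays and 0.76 ± 0.16 over 5 arrays (SE; limma, adjusted p = 0.721 and 0.080), with a 5-array 95% confidence interval of 0.39 to 1.13. Tgfbi encodes a matrix adhesion protein induced by TGF-beta, with levels of 0.19, 0.28 and 0.38 on the captopril arrays, against 0.74, 1.62 and 0.38 on the water arrays. Captopril replicate 4 and water replicate 4 overlapped, and the difference was −0.63 ± 0.34 over 6 arrays and −0.28 ± 0.17 over 5 arrays (limma, adjusted p = 0.627 and 0.403).

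Feeder fibroblasts express matrix genes such as Ctgf and Tgfbi. The median level of the 14 feeder fibroblast markers, each centred on its own median over the arrays, was −0.19 to −0.00 on the captopril arrays. It was 0.02 and 0.00 on water replicates 2 and 4. On water replicate 3 it was 0.90, beside 0.36 for all tested genes and 0.36 for the markers of undifferentiated spermatogonia. The median difference of the feeder markers was −0.49 over 6 arrays and −0.12 over 5, and 0 of 14 passed the threshold in either comparison. At an unadjusted p under 0.05, 5 of the 14 or 35.7% were lower and none was higher in each comparison, against 4.94% of all tested genes lower over 6 arrays and 7.01% over 5. The captopril arrays of 6 of the 14 lay below all water arrays in each comparison, where all tested genes had 11.4% over 6 arrays and 15.7% over 5. Those of 3 of the 14 (Col1a2, Thy1 and Pdgfra) lay above all water arrays over 5 arrays, where all tested genes had 27.2%. None did over 6 arrays, where all tested genes had 10.1%. The 15 markers of undifferentiated spermatogonia had a median difference of 0.05 over 6 arrays and 0.13 over 5, and 0 of 15 passed. At an unadjusted p under 0.05, 1 of the 15 or 6.67% was higher over 6 arrays, against 3.32% of all tested genes. Over 5 arrays 3 or 20% were higher, against 12.1%, and none was lower in either comparison. Groups did not overlap for 2 higher and 2 lower over 6 arrays, 26.7% against 21.5% of all tested genes. Over 5 arrays this held for 5 higher and 2 lower, 46.7% against 42.9%. The part of cell makeup in the values of Ctgf, Tgfbi, Tgfb3, Ltbp1 and the other members was not tested.

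With both directions counted, groups that did not overlap were no more frequent among the members than among all tested genes. By direction, the share with higher captopril arrays was slightly above that of all tested genes in both comparisons. The share with lower captopril arrays was below that of all tested genes in both. These shares carry no test. Over 6 arrays 4 members or 11.1% had every captopril array above every water array (Tgfb3, Grem1, Acvr1b and Ski), against 10.1% of all tested genes. None had every one below, against 11.4% of all tested genes, which together had 21.5%. Over 5 arrays, 12 of 36 members or 33.3% did not overlap, against 42.9% of all tested genes. Of these, 11 of the 36 were higher (the 4 above with Bmp2, Ltbp1, Acvr1, Smad3, Smad5, Tgif1 and Ctgf), where all tested genes had 27.2%. Smad1 alone was lower, where all tested genes had 15.7%. These counts use the brightest probe of each gene. The second probes of Smad5 and Smad1 did not overlap either, but in the opposite direction. Over 5 arrays the second Smad5 probe was lower with captopril (−0.32) and the second Smad1 probe higher (0.26). The second Acvr1 probe overlapped there, with a difference of 0.04. The dim second Acvr2a probe (−0.42) and another Smurf2 probe (−0.28) lay below water replicates 2 and 4 on every captopril array. The brightest probes of Acvr2a and Smurf2 overlapped.

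Water replicate 3 lay at least 2-fold from the mean of water replicates 2 and 4 for 13 of 36 members or 36.1%, against 30.3% of all tested genes. By the brightest probe of each gene, it was higher for Ltbp1, Acvr1, Bmpr1a, Smad4, Smad6, Id1, Ctgf and Tgfbi, and lower for Tgfb1, Acvr1b, Smad1, Smurf2 and Id3. The second probes of Acvr1 and Smad4 were lower there. The higher genes departed by 1.05 to 1.35 on the log2 scale, and the lower ones other than Acvr1b by −1.48 to −3.41. Acvr1b was not well above background on water replicate 3, so its size of departure is not measured. The median departure was 0.64 for the members, beside 0.48 for all tested genes. It was above 0 for 28 of 36 members, beside 10306 of the 14867 tested genes.

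**Figure D3:**
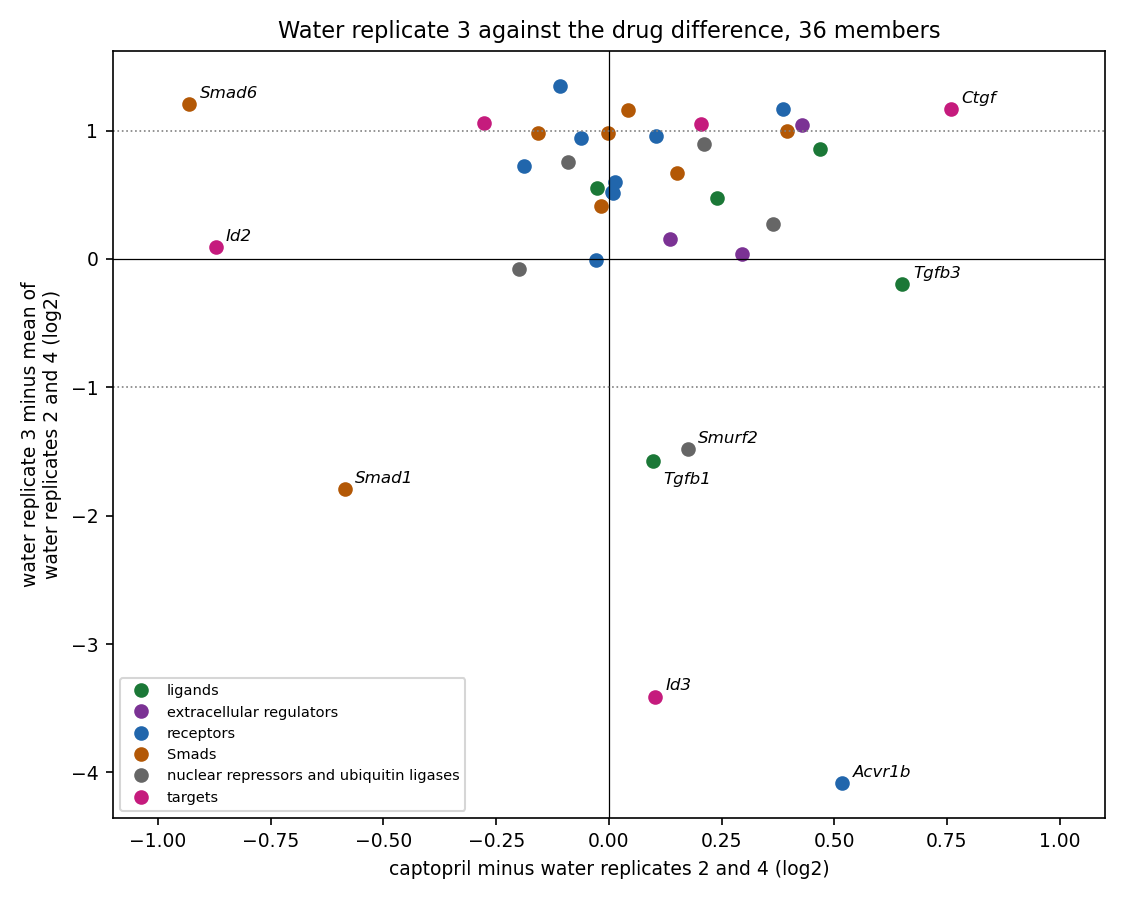
Difference between captopril and water replicates 2 and 4 (horizontal axis, log2) against the departure of water replicate 3 from the mean of those 2 water arrays (vertical axis, log2) for the 36 members, coloured by role; dotted lines mark 2-fold. Most members lie above 0 on the vertical axis, and Id3 lies at −3.41; Acvr1b is drawn lowest, at its signal on water replicate 3, which was not well above background.

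The array holds 51 probes for the 37 members, of which 47 passed the filter on dim signal, and 10 members had more than 1 such probe. For 6 of the 10 (Bmpr1b, Smad1, Smad4, Smad5, Smurf2 and Tgfbr2) the probes had opposite signs in the 5-array difference. The probes of Bmpr1b differed by −0.03 and 0.44, and those of Smad4 by 0.04 and −0.25. In the 6-array difference the signs were opposite for 5 of the 10 (Acvr1, Bmpr1b, Skil, Smad4 and Tgfbr2). On water replicate 3 the probes of 6 of the 10 (Acvr1, Acvr2a, Bmpr1b, Skil, Smad4 and Tgfbr2) also had opposite signs. The brightest Acvr1 probe was 1.17 above the mean of the other water arrays and the second Acvr1 probe was at −1.93. For Skil the values were 0.75 and −1.80, and for Smad4 they were 1.16 and −1.72. Both Smad1 probes and all 3 Smurf2 probes were lower there, at −1.79 for the brightest Smad1 probe and between −1.48 and −3.68 for Smurf2. The second Smad1 probe was not well above background on water replicate 3, so no size is given for it. Which transcripts each probe matches was not tested.

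**Figure D4:**
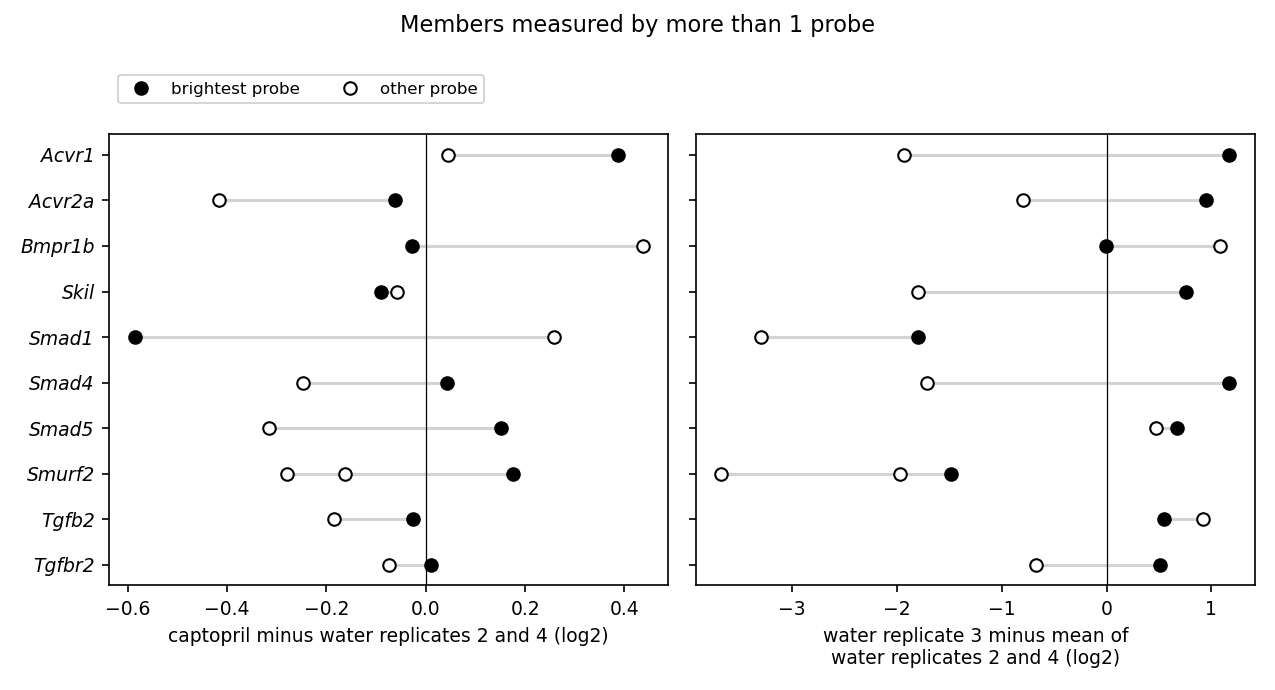
Log2 differences by probe for the 10 members with more than 1 probe above the filter on dim signal, with the brightest probe filled and the others open. The left panel is captopril minus water replicates 2 and 4, where the Smad1 probes lie at −0.59 and 0.26, and the right panel is water replicate 3 minus the mean of water replicates 2 and 4, where the Acvr1 probes lie at 1.17 and −1.93 and the lower Smad1 point was not well above background.

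A wider list of 90 genes of the TGF-beta superfamily and its signalling, of which 77 were measured, also had 0 members past the threshold in either comparison. At an unadjusted p under 0.05 over 5 arrays there were 17 higher and 6 lower, 29.9% of the 77, against 19.1% of all tested genes (12.1% higher and 7.01% lower). Over 6 arrays there were 1 higher and 4 lower, 6.49%, against 8.25% of all tested genes (3.32% higher and 4.94% lower). Among the other ligands, Inhbb, which encodes an activin and inhibin subunit, had −0.42, −0.47 and −0.77 on the captopril arrays, against 0.17, 1.12 and 0.28 on the water arrays. The groups did not overlap, and the difference was −1.08 ± 0.31 over 6 arrays and −0.78 ± 0.17 over 5 arrays (SE; limma, adjusted p = 0.518 and 0.084). Nodal, a ligand of the activin receptors, had −3.34, −3.33 and −3.21 on the captopril arrays, against −2.54, −3.35 and −2.74 on the water arrays, and its difference was −0.42 ± 0.27 over 6 arrays, where the groups overlapped, and −0.65 ± 0.15 over 5 arrays (SE; limma, adjusted p = 0.640 and 0.092). Water replicate 3 was at the captopril level, below the other water arrays. Tdgf1, the Nodal co-receptor Cripto, had −2.96, −2.98 and −2.64 on the captopril arrays, against −3.48, −3.10 and −3.13 on the water arrays, with a difference of 0.38 over 6 arrays and 0.45 over 5.

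The other extracellular regulators were measured in 18 genes, and 16 of the 18 had a 5-array difference above 0, beside 58.5% of all tested genes. Such a count depends on the scaling. The differences of Chrd, Fstl3, Bmper, Tll1 and Furin were only 0.01 to 0.11. Array-median scaling moved the 5-array median of all tested genes from 0.07 to −0.06. Over 6 arrays 10 of the 18 or 55.6% were above 0, beside 46.7% of all tested genes. Thbs1, thrombospondin, an activator of latent TGF-beta, had 3.01, 2.62 and 2.78 on the captopril arrays, against 2.17, 3.99 and 2.27 on the water arrays, with a difference of −0.01 over 6 arrays and 0.58 over 5. The antagonist gene Nbl1 differed by 0.32 over 6 arrays and by 0.60 over 5. Among the other targets, Cyr61 (now Ccn1), a matricellular gene of the same family as Ctgf, had 3.14, 3.11 and 2.94 on the captopril arrays, against 2.35, 2.90 and 2.38 on the water arrays. All captopril arrays of Cyr61 lay above all water arrays, and the difference was 0.52 ± 0.24 over 6 arrays and 0.70 ± 0.14 over 5 arrays (SE; limma, adjusted p = 0.615 and 0.081). Junb, an AP-1 transcription factor gene, had −2.19, −2.44 and −1.98 on the captopril arrays, against −3.14, −7.09 and −3.28 on the water arrays, where water replicate 3 was not well above background. The fitted difference of Junb was 2.30 ± 0.99 over 6 arrays, which includes that dim array, and 1.01 ± 0.18 over 5 arrays (SE; limma, adjusted p = 0.610 and 0.064). Rgmb, a BMP co-receptor gene, differed by −0.71 over 6 arrays and by −0.51 over 5. Foxh1, a nuclear partner of Smads, differed by 0.77 over 6 arrays and by −0.52 over 5, of opposite sign, and Wwp1, a ubiquitin ligase gene, by 0.90 and 0.36. Foxh1 and Wwp1 were not well above background on water replicate 3 either.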

How the data were processed

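Total RNA of 6 samples was measured on single-colour Agilent arrays. Per the file headers, spot intensity values were background-subtracted in Agilent Feature Extraction 11.5.1.1, although the submitters' processing notes name 10.7. A series table of log2 values was deposited by the authors too, with its making not given in the sources used here, and it served only as an alternative. Each of its columns differed from the log2 processed signal by a constant, within 0.01 for 100% of the probes. As an alternative it therefore changes only the constant subtracted from each array. From each array's log2 processed signals the 75th percentile was subtracted. Control spots and spots flagged as outliers were left out, and repeat spots of a probe were averaged. Genes were named through RefSeq accessions (gene table of GRCm38.p6), each by its brightest probe, where 3 or more arrays showed it well above background. The comparison used limma (version 3.58.1, R 4.3.3), two-sided, with Benjamini-Hochberg adjustment over 14867 genes and a threshold of 0.05, once over 6 arrays and once without water replicate 3. The labels describe independent experiments, and the number of arrays limits the precision. Slide row 1 held water replicates 2 and 3, and slide row 2 of the same slide held water replicate 4 with the 3 captopril arrays; the slide was scanned on 1 day. Members, lists, tests and alternatives were chosen with earlier results of these data known. All members are named; of each wider list, the 2 genes with the smallest p without water replicate 3 are named, as none passed. The code was tested on simulated data. Alternatives changed the scaling (array median), the normalization (quantile), the background (normexp, offset 50), the filter (none, or above background on every array), the probe rule (mean over probes), the source (the authors' log2 table), the variance model (robust trend), the blocks (replicate number, slide row), the arrays used (slide row 2 alone) and the replicates (each left out).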

Additional observations from a re-analysis of the deposited data

How the results depend on the processing

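The count of pathway members past the threshold was 0 under every alternative over 6 arrays. Over 5 arrays it was 0 under every alternative except the replicate number as a block, which called 1 member, Id2, at −1.19 (limma, adjusted p = 0.045), and 215 genes. In that fit captopril replicate 3 had no water array of its number, so the Id2 value rests on replicates 2 and 4. For Id2, captopril replicate 4 was well below every other array. The correlations of the deviations of same-numbered samples were −0.015, 0.022 and −0.192, and those of differently numbered samples −0.125 to 0.254. The water deviations are taken from a mean that includes water replicate 3, so these values cannot decide whether the numbers pair the samples. The labels do not say. Over 6 arrays the count of all genes called was 0 under every alternative except without water replicate 3 (range over arrays left out, 0 to 92). Over 5 arrays it was 39 with array-median scaling, 145 with the filter on all arrays, and 0 with quantile normalization, with no filter, with slide row as a block and in slide row 2 alone, where 3008, 2846, 1768 and 1768 genes had an unadjusted limma p under 0.05. It was 0 to 87 with a further array left out, 0 in all such cases except without captopril replicate 2; the cases at 0 had 1255 to 3439 genes at an unadjusted p under 0.05.

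The median difference of the members over 6 arrays was −0.42 with array-median scaling, 0.15 with slide row as a block and in slide row 2 alone, and −0.22 to 0.07 with an array left out. Over 5 arrays it was −0.062 with array-median scaling, −0.0064 with quantile normalization, 0.0098 with the mean of a gene's probes, 0.15 with slide row as a block and in slide row 2 alone, and 0.02 to 0.15 with a further array left out. For these 5 arrays the slide-row fits are the comparison of captopril with water replicate 4 alone. The causes were not tested. Of 36 members, 16 kept their sign under all alternatives over 6 arrays and 21 over 5. Signal over background limits Nog, which was not tested, Acvr1b, whose probe was not well above background on water replicate 3, and the dim Smad9. Over 5 arrays the largest standard errors were those of Smad6 (0.51), Id2 (0.44) and Smad9 (0.40).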
